A study of Mus musculus with 12 samples.

Results

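Fatty acid elongases were followed across the interscapular brown adipose tissue (iBAT) of wild type mice on 2 diets and at 2 housing temperatures. All members of the family were taken by their gene names, Elovl1 to Elovl7, which gave 7 of the 61210 genes in the count table. Total RNA was sequenced from 12 C57BL/6N mice aged 20 weeks, with 3 mice in each of 4 groups. NCD RT mice received a control diet and were housed at room temperature, NCD cold mice received the same diet and spent 24 h at 4 °C, and HFD RT and HFD cold mice were kept in the same 2 ways after 12 weeks of high-fat diet, begun at 8 weeks of age. None of the mice carried a modified allele.

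Elongases sit in the membrane of the endoplasmic reticulum and carry out the first step of the cycle that lengthens a fatty acid, the condensation of an acyl-CoA with malonyl-CoA. A ketoacyl-CoA reductase, a dehydratase and an enoyl-CoA reductase then complete the cycle. Elovl1, Elovl3, Elovl6 and Elovl7 act mainly on saturated and monounsaturated acyl chains, Elovl2 and Elovl5 on polyunsaturated chains, and Elovl4 makes very long chains that are known from retina, brain and skin. Brown fat is known for inducing Elovl3 in the cold, while Elovl6 extends palmitate, the main product of fatty acid synthase.

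The family shares a histidine box, 2 histidines next to each other preceded by another histidine, which is part of the catalytic centre. The 21 coding bases around it are shown because they are the feature that all members have in common and because they divide the members without reference to the expression values. The capitals mark the histidine codons, in the coding direction, on GRCm38, and each stretch occurs once in its coding sequence.
Elovl1: ctcCATgtcttcCACCACtcg
Elovl2: cttCATgtctatCACCACgcg
Elovl3: gtcCACtggtacCACCACagc
Elovl4: cttCACgtgtacCACCACtgc
Elovl5: ctcCATgtctacCACCACgct
Elovl6: ctgCACtggtacCACCACatc
Elovl7: cttCATgtcttcCATCATacg
Elovl3 and Elovl6 had the same 15 bases from the first histidine codon to the last, with tgg and tac between the histidines. In the other members the first of these codons was gtc or gtg. The stretches lie in exons, at chr4:118431451-118431471 (+) for Elovl1, chr13:41189998-41190018 (-) for Elovl2, chr19:46134419-46134439 (+) for Elovl3, chr9:83785087-83785107 (-) for Elovl4, chr9:77976847-77976867 (+) for Elovl5, chr3:129633104-129633124 (+) for Elovl6 and chr13:108274328-108274348 (+) for Elovl7.

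The libraries held 15136861 to 46740702 estimated counts. Levels are CPM (counts scaled to a common library total) after scaling by TMM, a normalization that assumes most genes do not change. A gene was called in a comparison of 2 groups when edgeR's quasi-likelihood test gave a Benjamini-Hochberg adjusted p under 0.05 with an absolute log2 fold change over 0.5. Of the 7 elongases, 5 passed the filter on low counts and were tested with 16737 genes in all, and Elovl2 and Elovl7 did not pass. The tissue label was checked with 11 brown adipocyte markers, all of which were detected, and mean Ucp1, the uncoupling protein of brown fat, ranged from 4203 CPM in NCD RT to 16357 CPM in NCD cold. Skeletal muscle markers varied within the groups, between 6.17-fold and 9.18-fold in their summed level. Of the 12 muscle markers, all had a negative log2 fold change in both cold comparisons and 0 were called. Epidermal and sebaceous markers, which come from tissue where Elovl3 is also known, summed to 12.3 to 25.4 CPM. Of these 12 markers 4 passed the filter on low counts, and 2, Krt5 and Gal, were at 0 in every library.

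**Figure D1:**
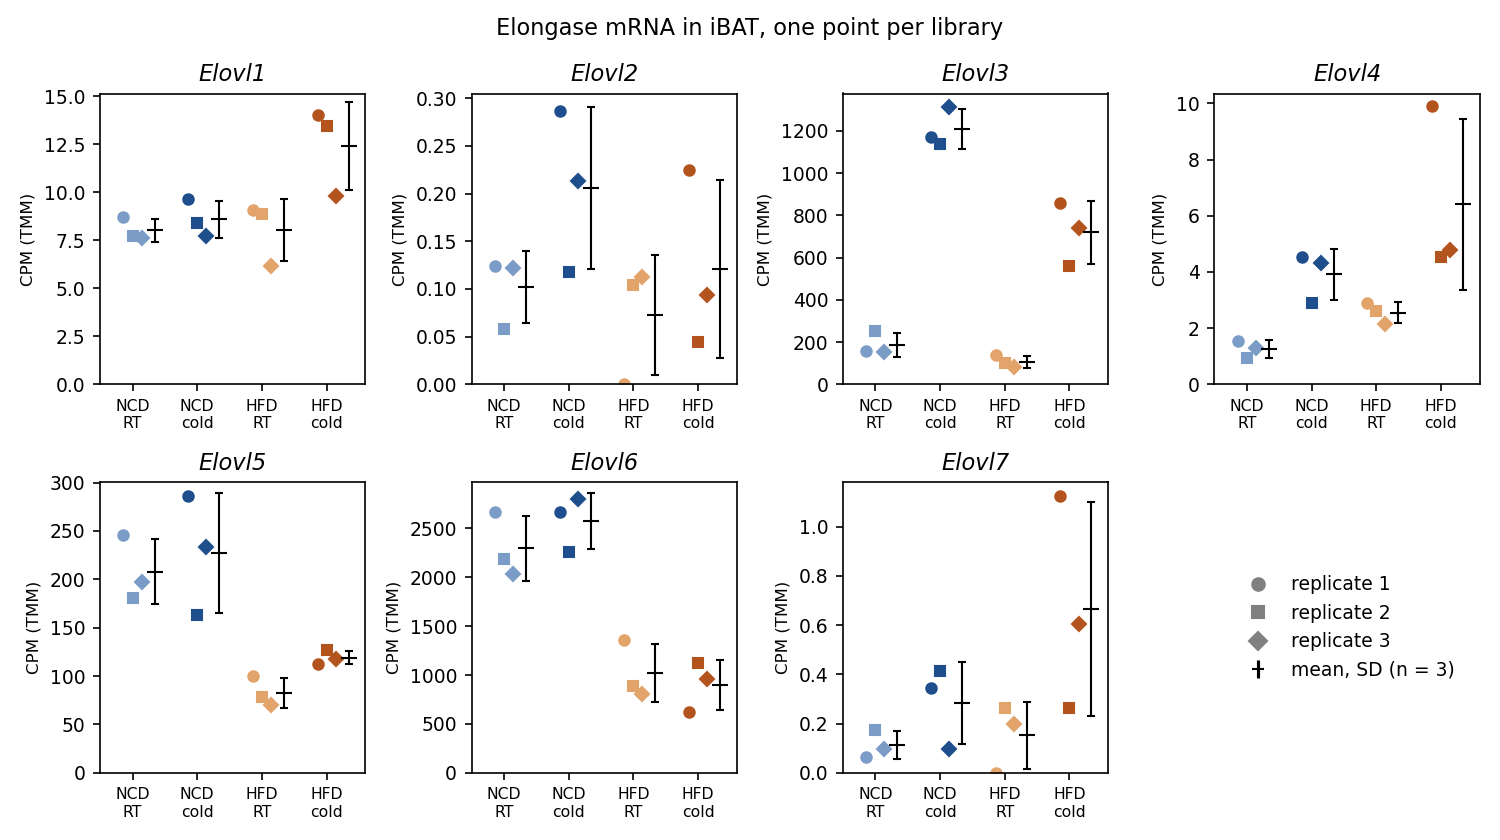
Level of each elongase in every library (CPM after TMM scaling, linear axes from 0), with the group mean and SD (n = 3) beside the points. Elovl3 lay between 1139 and 1315 CPM in NCD cold against 155 to 253 CPM in NCD RT, Elovl5 and Elovl6 were lower in every HFD library than in every NCD library, and Elovl2 stayed below 0.29 CPM throughout.

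Cold raised Elovl3 on both diets, by the largest log2 fold change among the 5 tested elongases. In NCD RT the 3 libraries measured 155, 253 and 155 CPM, and in NCD cold 1169, 1139 and 1315 CPM. In HFD RT they measured 137, 99.9 and 81.6 CPM, and in HFD cold 857, 562 and 741 CPM. Every cold library lay above every RT library of its diet, and the lowest cold library was above the highest RT library of either diet. The mean was 187.8 ± 56.7 CPM (SD, n = 3) in NCD RT and 1208 ± 94.3 CPM (n = 3) in NCD cold, which gave a log2 fold change of 2.69 with SE 0.25 (6.43-fold, adjusted p = 0.000375, edgeR quasi-likelihood test). On HFD the mean went from 106 ± 28.4 CPM to 720 ± 148 CPM (n = 3 in both groups), or 2.76 on the log2 scale, with a standard error of 0.25 (6.78-fold, adjusted p = 0.000227, edgeR). The cold effect did not differ detectably between the diets, with an interaction of 0.08 on the log2 scale (95% interval -0.66 to 0.81, adjusted p = 0.986, edgeR). Elovl3 was also the only elongase past an adjusted p of 0.001 in the test over all 4 groups (adjusted p = 4.3e-05, edgeR), a limit that 2.55% of all tested genes passed.

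The HFD libraries lay below the NCD libraries of the same temperature for Elovl3, without overlap at RT or in the cold. The log2 fold change was -0.82 at RT (95% interval -1.35 to -0.30, adjusted p = 0.105) and -0.75 in the cold (95% interval -1.27 to -0.22, adjusted p = 0.0923). Neither passed in the main edgeR fit, which gave these values. Without the filter on low counts edgeR called the difference at RT (-0.84, adjusted p = 0.0416) and not that in the cold (-0.74, adjusted p = 0.0632). DESeq2 gave adjusted p-values of 0.0101 and 0.0179 for the same differences and called both. The sum of the 11 brown adipocyte markers, mostly Ucp1 on NCD, was higher in the cold on both diets. It was 6377 to 8150 CPM in NCD RT and 19082 to 22733 CPM in NCD cold, and 8767 to 11145 CPM in HFD RT and 15365 to 19187 CPM in HFD cold. Of these markers 3 were called higher in the cold on NCD and 2 on HFD, against 3.72% and 5.39% of all tested genes. The log2 fold change was positive for 10 of 11 on NCD (median 0.43) and for 7 of 11 on HFD (median 0.45). Between the diets, 1 marker was called higher on HFD at RT and 0 lower, and 0 were called in the cold. Among all tested genes 0.992% were called higher and 1.09% lower on HFD at RT, and 2.06% and 2.69% in the cold. For HFD the marker values were positive for 7 of 11 at RT (median 0.39) and for 5 of 11 in the cold (median -0.15). In bulk tissue fewer cells of a type and less RNA per cell cannot be told apart, and the part of cell composition in the result was not tested.

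Elovl3 lies at chr19:46131897-46135694 (+), and the last part of the gene overlaps the end of Pitx3 on the other strand. In its own expression measurements of iBAT the study reported a robust rise of Elovl3 in the cold and no significant change with HFD alone. It also designed a quantitative PCR assay for Elovl3. The primers are shown because the assay and the sequencing read the same transcript.
Elovl3 forward: agcaaggttgttgaactggGA
Elovl3 reverse: gacgcttacgcaggatgatga
The capitals mark the 2 bases of the forward primer that fall in exon 4, the rest of which lies in exon 3, so the primer spans a splice junction. The amplicon is 52 bases long in both annotated transcripts and lies in the coding sequence, at chr19:46134134-46134407, upstream of the histidine box shown above.

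Elovl4, the elongase of very long chains, rose in the cold as well. Its libraries measured 1.56, 0.93 and 1.30 CPM in NCD RT and 4.53, 2.88 and 4.33 CPM in NCD cold, with 16 to 53 and 49 to 183 counts. On HFD they measured 2.90, 2.61 and 2.15 CPM at RT and 9.90, 4.53 and 4.78 CPM in the cold, with 45 to 76 and 103 to 220 counts. The groups did not overlap on either diet, and HFD cold replicate 1, at 9.90 CPM, stood above the other 2 libraries of its group. The log2 fold change was 1.63 with a standard error of 0.34 on NCD (3.10-fold, adjusted p = 0.0161, edgeR) and 1.33 with a standard error of 0.33 on HFD (2.51-fold, adjusted p = 0.0247, edgeR). Without HFD cold replicate 1 the response on HFD was 0.90 (adjusted p = 0.0814), and it was also not called without HFD RT replicate 2 (1.35, adjusted p = 0.0699) or replicate 3 (1.21, adjusted p = 0.083). The response on NCD was not called without NCD RT replicate 2 (1.47, adjusted p = 0.0676) or replicate 3 (1.66, adjusted p = 0.0623). A skeletal muscle score in the fit lowered the response to 1.41 on NCD (adjusted p = 0.012) and 0.95 on HFD (adjusted p = 0.0488), both still called (edgeR).

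Every HFD library was above every NCD library of the same temperature for Elovl4, in the cold by the margin of 4.535 against 4.529 CPM. The log2 fold change was 1.01 at RT (95% interval 0.25 to 1.76, adjusted p = 0.155) and 0.70 in the cold (95% interval -0.00084 to 1.41, adjusted p = 0.220), and neither was called. Without HFD cold replicate 1 the value in the cold was 0.28 (adjusted p = 0.705, edgeR). The gene lies at chr9:83778692-83806277 (-).

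In the main edgeR fit the cold response was thus held by 2 of the 5 tested elongases on each diet. These were Elovl3 and Elovl4, both upward. DESeq2 called 2 elongases on NCD and 3 on HFD. Among all tested genes 3.72% were called higher in the cold on NCD and 5.39% on HFD. Of the 5 tested elongases 4 were higher in every cold library than in every RT library on HFD, against 2 on NCD. Among all tested genes the groups did not overlap, in either direction, for 30.3% on HFD and 27.8% on NCD. The additional members on HFD were Elovl1 and Elovl5.

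Elovl1, which elongates saturated chains toward the lengths found in sphingolipids, overlapped between 3 of the groups. It measured 8.71, 7.73 and 7.62 CPM in NCD RT, 9.63, 8.42 and 7.72 CPM in NCD cold and 9.08, 8.89 and 6.18 CPM in HFD RT. In HFD cold it measured 14.04, 13.4 and 9.79 CPM, above every library of the other 3 groups. The log2 fold change of cold on HFD was 0.63 with a standard error of 0.19 (95% interval 0.22 to 1.04, adjusted p = 0.0529, edgeR), just outside the threshold, and 0.10 on NCD (adjusted p = 0.829). Libraries with the same replicate number deviated together between RT and cold. On HFD these correlations were 0.155 to 0.386, against -0.268 to 0.134 for different numbers. The highest was that of replicate 3, which came from another batch, so pairing cannot be told from batch there. With a block for the replicate number, fitted separately in each diet, the value on HFD was 0.63 with an adjusted p of 0.011 (edgeR), which passed. It was also called in DESeq2 (0.63, adjusted p = 0.0223) and with a minimum mean of 10 counts (0.65, adjusted p = 0.0413), whereas a skeletal muscle score in the fit lowered it to 0.45 (adjusted p = 0.113). The difference of HFD cold from NCD cold was 0.53 (95% interval 0.12 to 0.94, adjusted p = 0.119, edgeR). Summed macrophage markers were at 161 to 357 CPM in HFD cold, 118 to 159 in NCD cold, 163 to 232 in HFD RT and 161 to 209 in NCD RT. Of the 9 markers 2 were called higher on HFD in the cold, against 2.06% of all tested genes. Summed endothelial markers were at 1190.5 to 1427 CPM in HFD cold, 912 to 1073 in NCD cold, 987 to 1221 in HFD RT and 698 to 826 in NCD RT. Of the 7 endothelial markers tested 0 were called higher on HFD in the cold. The part of either cell type in the level of Elovl1 was not tested. The gene lies at chr4:118428093-118432953 (+) and overlaps Cdc20 on the other strand.

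**Figure D2:**
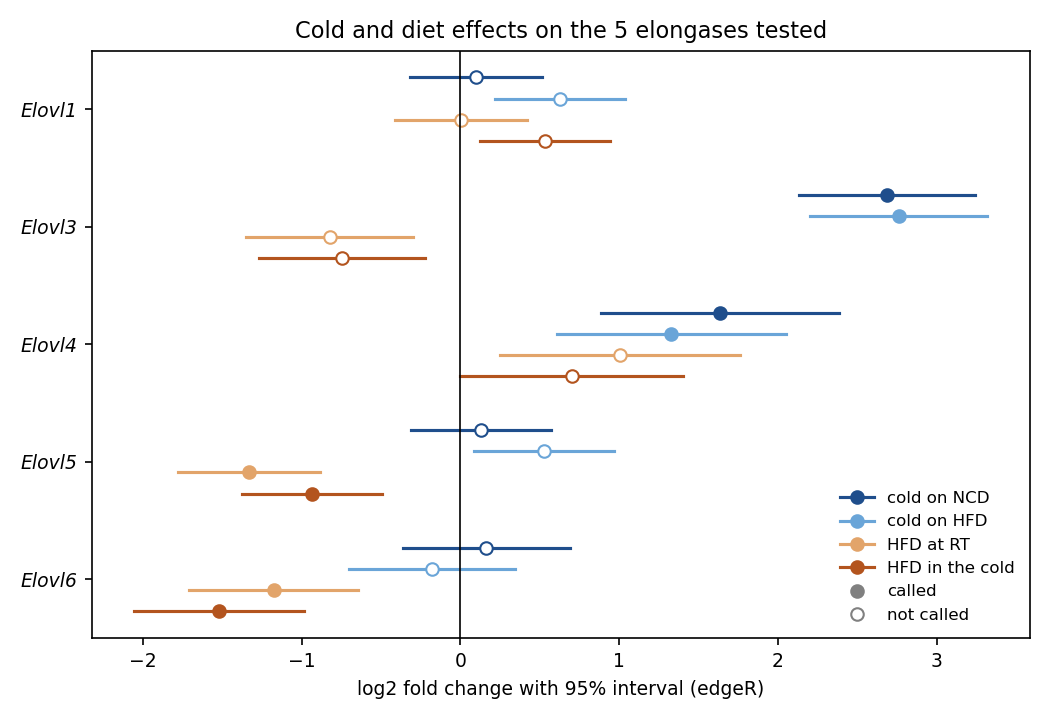
Log2 fold change of the 5 tested elongases in 4 comparisons, with 95% intervals from edgeR and filled points for called differences. Elovl3 (2.69 and 2.76) and Elovl4 (1.63 and 1.33) lie to the right of 0 for cold, and Elovl5 (-1.33 and -0.93) and Elovl6 (-1.17 and -1.52) to the left of 0 for HFD.

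HFD lowered a different pair of elongases, Elovl5 and Elovl6, at both temperatures. Elovl6, the palmitate elongase, measured 2672, 2185 and 2037 CPM in NCD RT and 2671, 2254 and 2802 CPM in NCD cold. On HFD it measured 1355, 890 and 809 CPM at RT and 619, 1124 and 955 CPM in the cold. The lowest NCD library was above the highest HFD library, and HFD RT and HFD cold overlapped. At RT the mean fell from 2298 ± 332 to 1018 ± 295 CPM (SD, n = 3 in both groups), or -1.17 on the log2 scale, with a standard error of 0.24 (2.26-fold lower, adjusted p = 0.0326, edgeR). In the cold it fell from 2576 ± 287 to 899 ± 257 CPM (n = 3 in both groups), or -1.52 on the log2 scale, with a standard error of 0.24 (2.86-fold lower, adjusted p = 0.00701, edgeR). The change at RT lost its call in 5 of the 12 fits without 1 library, those without NCD RT replicate 1 (-1.08, adjusted p = 0.115), replicate 2 (-1.21, 0.0839) or replicate 3 (-1.29, 0.0593) and those without HFD RT replicate 2 (-1.09, 0.121) or replicate 3 (-1.03, 0.103). Of the fits that left out an NCD RT or HFD RT library, only that without HFD RT replicate 1 kept the call (-1.47, adjusted p = 0.0172, edgeR). The change in the cold was called in all 12 fits without 1 library.

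Cold itself moved Elovl6 by 0.16 on NCD (95% interval -0.36 to 0.69, adjusted p = 0.765) and by -0.18 on HFD (95% interval -0.70 to 0.35, adjusted p = 0.667), neither of which was called in edgeR. The gene lies at chr3:129532355-129638495 (+) and overlaps Gm35986, a noncoding gene on the other strand, and Gm43072, a gene model awaiting experimental evidence, on the same strand. Gm35986 was called lower on HFD in the cold (-2.88, adjusted p = 0.004, edgeR) and in the cold on HFD (-1.89, adjusted p = 0.0146). These overlaps are of whole gene spans, and whether exons overlap was not tested. Whether the counting used the strand was not stated. How far reads are shared with Gm35986 is therefore not known, and strand would not separate any shared with Gm43072.

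Elovl5, which elongates polyunsaturated chains, was lower on HFD as well. It measured 246, 181 and 197 CPM in NCD RT and 286, 163 and 233 CPM in NCD cold. On HFD it measured 100.3, 77.8 and 70.2 CPM at RT and 112, 127 and 118 CPM in the cold. All 6 HFD libraries were below all 6 NCD libraries. HFD lowered Elovl5 at RT by a log2 fold change of -1.33 with a standard error of 0.20 (2.51-fold lower, adjusted p = 0.00824, edgeR), and in the cold by -0.93 with a standard error of 0.20 (1.91-fold lower, adjusted p = 0.0267, edgeR). The change at RT was called in all 12 fits without 1 library. The change in the cold was not called without NCD cold replicate 1 (-0.74, adjusted p = 0.0923) or replicate 3 (-0.92, 0.0775), or without HFD cold replicate 1 (-0.86, 0.112) or replicate 3 (-0.92, 0.0896).

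On HFD each cold library exceeded each RT library of Elovl5, at a log2 fold change of 0.53 (95% interval 0.08 to 0.97, adjusted p = 0.116, edgeR). With the same blocks as for Elovl1 this was 0.54 with an adjusted p of 0.0334, which passed. On NCD the groups overlapped, with a log2 fold change of 0.13 (adjusted p = 0.782). The gene lies at chr9:77917364-77984519 (+).

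HFD therefore lowered 2 of the 5 tested elongases at each temperature and raised 0 of them in the main edgeR fit. DESeq2 called 3 in each diet comparison. Among all tested genes 1.09% were called lower and 0.992% higher at RT, and 2.69% lower and 2.06% higher in the cold. The diets did not overlap for 4 of the 5 tested elongases at RT, 1 higher and 3 lower on HFD, and for all 5 in the cold, 2 higher and 3 lower. For all tested genes these shares were 25.9% at RT and 25.2% in the cold. Of the 5 tested elongases 4 had an unadjusted p under 0.05 in each diet comparison, as did 3033 of the 16737 tested genes at RT and 3802 in the cold. The comparisons share groups of libraries, so their values are given side by side and are not independent.

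None of the 5 tested elongases passed the test of the interaction between diet and cold. In edgeR 0 were called at an adjusted p under 0.05 and 0 had an unadjusted p under 0.05, and DESeq2 also gave 0 and 0. Over all tested genes the interaction called 0 in edgeR, where 1091 had an unadjusted p under 0.05, and 65 in DESeq2. Without the filter on low counts edgeR called 27. The estimate farthest from 0 was that of Elovl1, 0.53 on the log2 scale (95% interval -0.05 to 1.11, adjusted p = 0.789, edgeR). The intervals of Elovl5 (-0.23 to 1.02) and Elovl6 (-1.09 to 0.40) leave room for differences of a log2 unit between the diets.

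**Figure D3:**
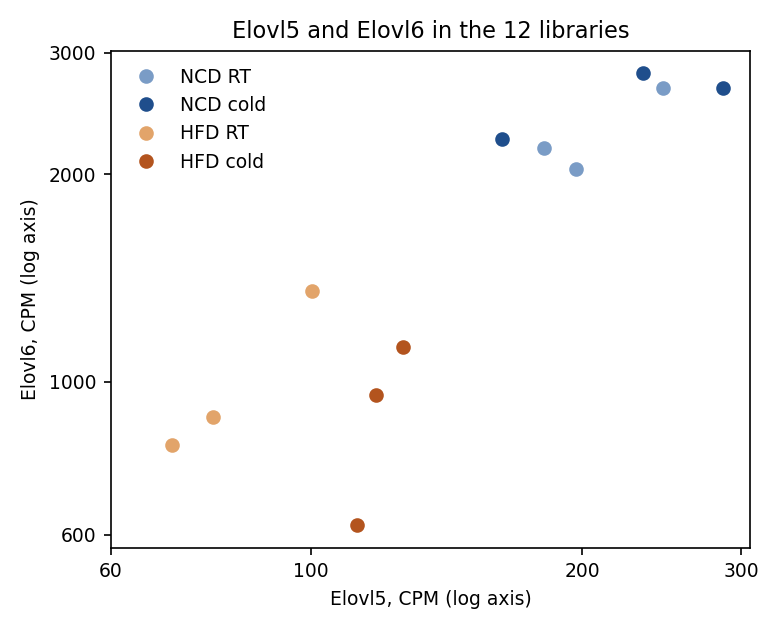
Elovl6 against Elovl5 in the 12 libraries (CPM, both axes logarithmic), coloured by group. The 6 HFD libraries fill the lower left, at 70.2 to 127 CPM of Elovl5 and 619 to 1355 CPM of Elovl6, and the 6 NCD libraries the upper right, at 163 to 286 and 2037 to 2802 CPM.

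Elovl5 and Elovl6 were the pair of tested elongases with the most similar profiles, with a Pearson r of 0.88 and a Spearman rho of 0.87 over the 12 libraries on log2 CPM. The libraries fall into groups by diet, which this value shares with every diet-dependent gene. Their promoters are shown because both genes fell on HFD. The windows come from RefSeq on GRCm38.p6, end where the GENCODE gene begins and hold 249 bases for Elovl5, chr9:77917115-77917363 (+), and 219 bases for Elovl6, chr3:129532136-129532354 (+).
Elovl5: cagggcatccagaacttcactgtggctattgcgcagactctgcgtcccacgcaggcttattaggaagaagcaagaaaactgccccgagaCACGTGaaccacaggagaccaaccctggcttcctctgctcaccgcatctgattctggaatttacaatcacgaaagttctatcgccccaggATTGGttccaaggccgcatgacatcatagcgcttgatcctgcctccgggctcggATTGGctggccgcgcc
Elovl6: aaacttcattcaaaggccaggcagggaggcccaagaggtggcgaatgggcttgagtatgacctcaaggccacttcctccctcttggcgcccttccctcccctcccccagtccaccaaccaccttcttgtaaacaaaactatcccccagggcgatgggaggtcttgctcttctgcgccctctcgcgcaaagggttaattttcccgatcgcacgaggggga
The capitals mark motif matches. The 250 bases before the RefSeq start were searched on both strands for a sterol regulatory element, TCACNCCAC in letters, an E-box with the letters CACGTG, and the pentamer CCAAT known as the CCAAT box. A cyclic AMP response element with the letters TGACGTCA was also searched, and so was its shorter form with the letters TGACG, which the longer one contains. The last motifs were direct repeats of the hexamer AGGTCA with a gap of 1 base or of 4 bases. Elovl5 held the E-box 161 to 156 bases upstream and a CCAAT box on the reverse strand, read as ATTGG, 71 to 67 and again 17 to 13 bases upstream. The window of Elovl6 held none of these letters. Among 32851 promoter windows, 6.02% held the E-box, 33.8% a CCAAT box and 1.05% the sterol regulatory element, while the other shares were 1.55% for TGACGTCA, 17.8% for TGACG, 0.0335% for the repeat with a gap of 1 and 0.0152% for that with a gap of 4. Windows were matched for 6 of the 7 elongases, all but Elovl3.

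Elovl2 and Elovl7 were close to the limit of detection. Elovl2, a polyunsaturated fatty acid elongase, had 0 to 9 counts in a library, with sums of 8 in NCD RT, 16 in NCD cold, 6 in HFD RT and 10 in HFD cold over the 3 libraries. Elovl7 had 1, 3 and 4 counts in NCD RT, 6, 7 and 4 in NCD cold, 0, 5 and 7 in HFD RT and 25, 6 and 26 in HFD cold. In CPM Elovl7 measured 0.264 to 1.13 in HFD cold against 0 to 0.261 in HFD RT, a separation of less than 1 count. A count of 0, as in HFD RT replicate 1 for both genes, allows up to 3 counts or 0.193 CPM there, for counting error only. Fitted without the filter, cold on HFD gave a log2 fold change of 2.04 for Elovl7 with an adjusted p of 0.167 (edgeR).

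Between genes, levels were compared per kilobase of exon. In NCD RT the order was Elovl6 (357 ± 51.7 CPM per kb, SD, n = 3), Elovl3 (95.1 ± 28.7), Elovl5 (59.0 ± 9.58), Elovl1 (2.94 ± 0.22) and Elovl4 (0.42 ± 0.10), and then Elovl7 and Elovl2, whose libraries overlapped. The same order held in HFD RT. In the cold Elovl3 moved ahead of Elovl6 on this scale, with 612 ± 47.7 against 401 ± 44.6 CPM per kb on NCD and 365 ± 75.2 against 139.9 ± 39.9 on HFD, and the libraries of the genes did not overlap. Elovl6 was ahead of Elovl3 in every group mean when the coding length was used instead, with 3216 against 1486 CPM per coding kb in NCD cold and 1123 against 886 in HFD cold, where Elovl6 led in mean only (HFD cold replicate 1 was higher for Elovl3). The order of Elovl3 and Elovl6 in the cold therefore depends on which part of the transcript is counted as its length. The same holds for Elovl3 and Elovl5 in NCD RT, whose means per coding kb were 231.0 and 231.9 CPM.

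The composition of elongase mRNA moved with temperature on both length scales. Elovl3 took 18.5% ± 5.46 (SD, n = 3) of the summed level per kb of exon in NCD RT and 56.6% ± 2.44 in NCD cold, and 22.5% ± 0.91 in HFD RT and 66.5% ± 9.64 in HFD cold. Elovl6 took 69.3% ± 4.11 and 37.0% ± 1.07 on NCD, and 65.9% ± 1.54 and 26.0% ± 8.98 on HFD. With the coding length Elovl3 went from 7.004% to 30.0% on NCD and from 8.69% to 41.4% on HFD. At each temperature the share of Elovl3 overlapped between the diets, while the summed level was 515 ± 57.1 CPM per kb in NCD RT against 239 ± 64.9 in HFD RT, and 1081 ± 98.0 in NCD cold against 545 ± 37.6 in HFD cold.

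**Figure D4:**
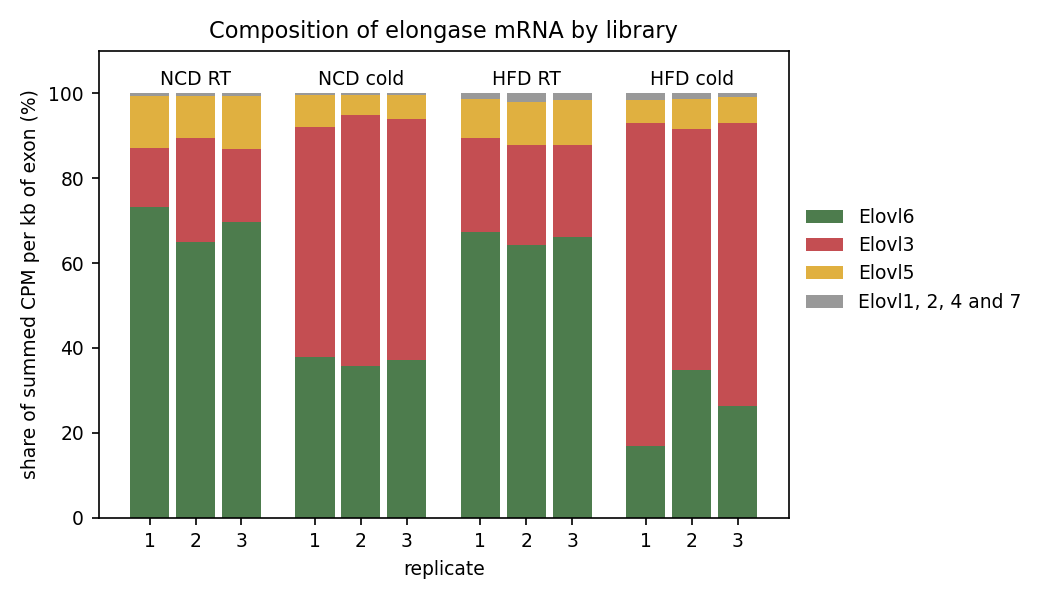
Share of each elongase in the summed elongase level of a library (percent of CPM per kb of exon), 1 bar per library. Elovl3 holds 13.9% to 24.5% in the 6 RT libraries and 54.1% to 76.0% in the 6 cold libraries.

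Of the enzymes that complete the elongation cycle, 2 were higher in the cold and 1 was lower on HFD, and all 7 genes of the list were tested. Hacd2, a dehydratase of the cycle, was called higher in the cold, from 88.2 to 330 CPM on NCD (log2 fold change 1.90 ± 0.17 SE, adjusted p = 0.000298) and from 81.0 to 268 CPM on HFD (1.73 ± 0.17 SE, adjusted p = 0.000338, edgeR). Hsd17b12, the ketoacyl-CoA reductase, was called higher as well, by 0.70 on NCD (adjusted p = 0.0116) and 0.71 on HFD (adjusted p = 0.00778, edgeR). Tecr, the enoyl-CoA reductase, was called lower on HFD, by -0.96 at RT (adjusted p = 0.0453) and -1.11 in the cold (adjusted p = 0.0159, edgeR). The other dehydratases Hacd1, Hacd3 and Hacd4, and the Tecr-like gene Tecrl, were called in 0 of the 4 comparisons. Counted over the list, 2 of 7 were higher in each cold comparison and 1 of 7 lower in each diet comparison, with list medians of 0.06 for cold on NCD, 0.35 for cold on HFD, -0.37 for HFD at RT and -0.30 for HFD in the cold. The medians of all tested genes in the same order were -0.01, -0.04, 0.03 and 0.02. Their shares called higher in the cold were 3.72% on NCD and 5.39% on HFD. Shares called lower on HFD were 1.09% at RT and 2.69% in the cold.

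The fatty acid synthesis list, which supplies Elovl6 with its substrate, had members called lower on HFD and in the cold. Of its 9 genes 4 were called lower on HFD at RT (median -1.06), 8 on HFD in the cold (median -2.09), 7 in the cold on HFD (median -1.93) and 2 in the cold on NCD (median -0.40), and 0 were called higher. Among all tested genes 4.19% were called lower in the cold on HFD and 2.55% in the cold on NCD. On HFD the shares called lower were 1.09% at RT and 2.69% in the cold. Fasn, the fatty acid synthase, had means of 58152 CPM in NCD RT, 42474 in NCD cold, 28927 in HFD RT and 3916 in HFD cold, with a log2 fold change of -2.88 for cold on HFD (adjusted p = 0.000489) and -3.44 for HFD in the cold (adjusted p = 0.000456, edgeR). Acly, which makes cytosolic acetyl-CoA, changed by -3.50 and -4.32 and Acaca, which makes malonyl-CoA, by -2.76 and -3.17 in these comparisons. Thrsp changed by -1.98 and -2.72, and Me1, a source of NADPH, by -0.88 and -2.09. The log2 fold change of Elovl6 for cold on HFD was -0.18 and that of Elovl5 0.53, and the difference between these genes and the list was not tested.

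**Figure D5:**
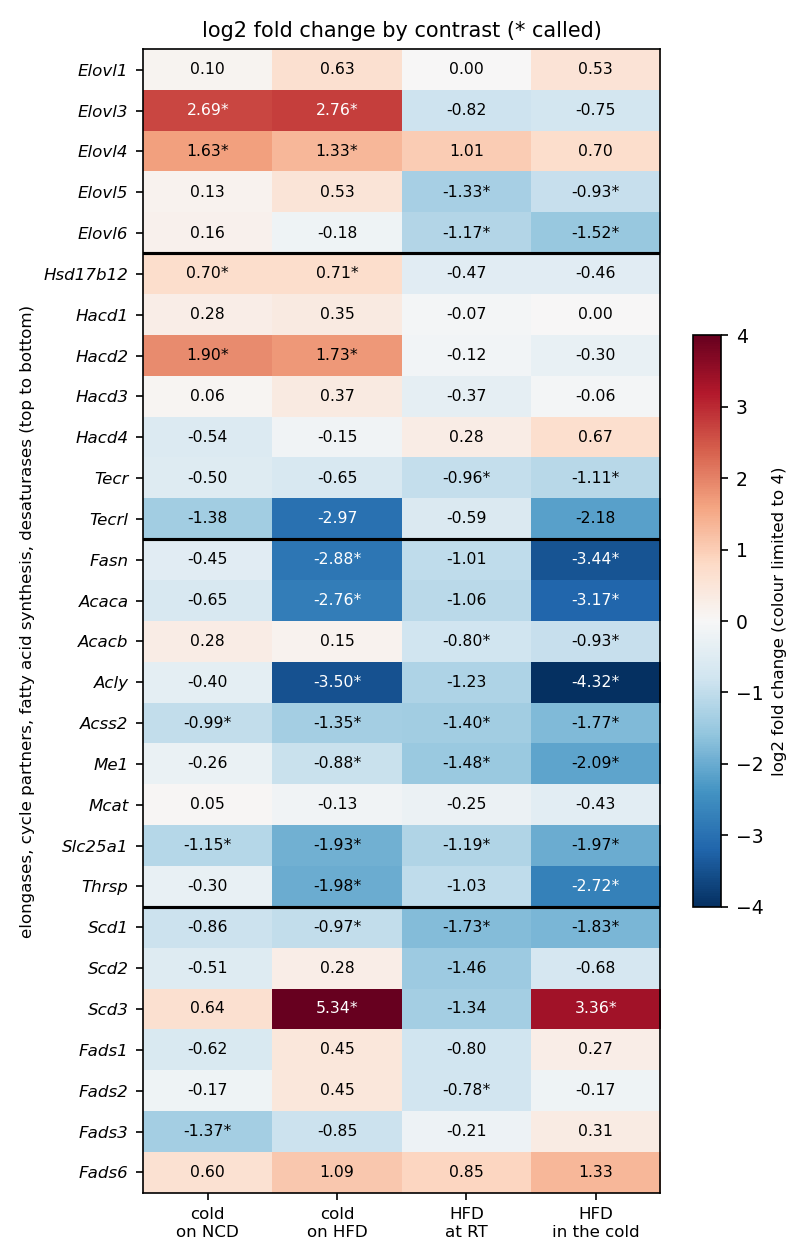
Log2 fold changes of the tested elongases, the other enzymes of the elongation cycle, the fatty acid synthesis list and the desaturases in 4 comparisons, with an asterisk for called differences. Red marks Elovl3, Elovl4, Hsd17b12 and Hacd2 in both cold comparisons and Scd3 for cold on HFD (5.34), and blue marks all 9 synthesis genes in both diet comparisons, deepest in Acly for HFD in the cold (-4.32).

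Desaturases, which introduce double bonds into the chains that elongases extend, were tested for 7 of 8 genes. Scd1, the main stearoyl-CoA desaturase, was called lower on HFD at RT (-1.73, adjusted p = 0.00887) and in the cold (-1.83, adjusted p = 0.00429), and in the cold on HFD (-0.97, adjusted p = 0.0362, edgeR). Scd3 was called higher in HFD cold, at 15.7 CPM against 0.389 CPM in HFD RT (5.34, adjusted p = 0.00691) and 1.58 CPM in NCD cold (3.36, adjusted p = 0.0482, edgeR). Scd3 and Scd1 are close paralogs, so reads may be divided between them with error. Fads2, which works on the same polyunsaturated pathway as Elovl5, was called lower on HFD at RT (-0.78, adjusted p = 0.0472), and Fads3 lower in the cold on NCD (-1.37, adjusted p = 0.0123, edgeR).

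Among the regulators of lipogenesis, 14 of 15 listed genes were found in the table and tested. Srebf1, which encodes the transcription factor SREBP-1, was called in 0 of the 4 comparisons, with means of 606, 374, 330 and 343 CPM in NCD RT, NCD cold, HFD RT and HFD cold. Its log2 fold change on HFD was -0.88 at RT (adjusted p = 0.237) and -0.12 in the cold (adjusted p = 0.890, edgeR). Insig1, a sterol-sensing partner of the SREBP pathway, was called lower on HFD at RT (-1.31, adjusted p = 0.00719) and in the cold (-1.51, adjusted p = 0.00233). Mlxipl, the carbohydrate-responsive factor ChREBP, was called lower in HFD cold against HFD RT (-0.85, adjusted p = 0.00672) and against NCD cold (-1.001, adjusted p = 0.00593). Ppargc1a, a coactivator induced in active brown fat, was called higher in the cold on NCD (2.25, adjusted p = 0.0202, edgeR).

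The genes most similar to each elongase were taken by Pearson r of log2 CPM over the 12 libraries among 13078 genes, as a description. For Elovl3 these were Hsd17b7 (r = 0.985), Cisd2 (0.974) and Apmap (0.972). For Elovl5 they were Tmem167 (0.967), Idi1 (0.960) and Fdps (0.958), of which Idi1 and Fdps are enzymes of the isoprenoid pathway. For Elovl6 they were Hdgf (0.976), Aldh1l1 (0.968) and Sorl1 (0.968). For Elovl4 they were Cd36 (0.970), a fatty acid transporter, Map4k4 (0.955) and Tmem62 (0.949), and for Elovl1 they were Cd300lg (0.907), Gpsm3 (0.903) and Mtmr12 (0.903).

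Replicates 1 and 2 of every group belonged to batch 1 and replicate 3 to batch 2. Within batch 1 alone, which leaves 8 libraries, the log2 fold change of Elovl3 was 2.50 for cold on NCD (adjusted p = 0.0191) and 2.58 on HFD (adjusted p = 0.0185, edgeR). The other called differences kept their direction there without passing. Elovl4 changed by 1.58 and 1.39 in the cold (adjusted p = 0.126 and 0.123), Elovl5 by -1.26 and -0.91 on HFD (0.127 and 0.214), and Elovl6 by -1.11 and -1.498 on HFD (0.201 and 0.117). Batch 2 has 1 library per group and gives no test. With batch as a term in the fit of all 12 libraries, all 8 called differences passed, and Elovl1 was called higher as well, for cold on HFD (0.63, adjusted p = 0.0137) and for HFD in the cold (0.52, adjusted p = 0.0472, edgeR).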

How the data were processed

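Total RNA of 12 iBAT samples was sequenced (Illumina TruSeq), 1 mouse per library. The authors trimmed the reads (cutadapt), ran salmon on the union of the GENCODE M22 and RNAcentral transcripts (GRCm38) and deposited whole-number estimated counts for each gene and mouse, neither normalized nor pooled. Precision was limited by 15136861 to 46740702 counts per library.

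Genes were filtered with filterByExpr (minimum count 10), scaled by TMM and fitted with edgeR 4.0.16 (R 4.3.3, quasi-likelihood, 4 group means, 12 libraries). P-values were Benjamini-Hochberg adjusted over 16737 genes. The adjusted p had to be under 0.05 for contrasts, which also needed a log2 fold change beyond 0.5 in either direction, and for the interaction, and under 0.001 for the 4-group test. Exact permutation of 3 against 3 libraries cannot go below p = 0.1 and was not used. Exonic and coding lengths and coordinates came from GENCODE M21 on GRCm38, and promoters from RefSeq.

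Same-numbered libraries at RT and in the cold deviated together from their group means (correlations 0.219 to 0.456 on NCD and 0.155 to 0.386 on HFD), so fits with the number as a block are given where they changed a call in the cold comparisons. The pairing rests on these correlations. Between diets they were -0.211 to 0.365, and the numbers were not taken as pairs. Alternatives were DESeq2 1.42.0, its size factors, no filter, genes with a mean of 10 or more counts, a batch term, batch 1 alone, the replicate blocks, only the 6 libraries compared, no minimum fold change, a skeletal muscle score and each library left out, and for levels the library size alone. The scripts were tested on simulated data. The elongases and the lists were chosen with earlier results of these data known. All elongases and cycle partners were named. At most 5 called genes were named from each other lipid list, by absolute log2 fold change, besides Ucp1, Fasn, Scd1 and Srebf1 and the 3 genes most like each elongase. Gm35986 was added after its values were seen.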

Additional observations from a re-analysis of the deposited data

How the results depend on the processing

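Elovl3 was called higher in both cold comparisons under all 11 alternatives and all 12 fits without 1 library, with log2 fold changes of 2.50 to 3.02. With batch 1 alone the numbers of called elongases were 1 in each cold comparison and 0 in each diet comparison and the 4-group test. With only the 6 libraries compared they were 1 for cold on HFD, HFD at RT and HFD in the cold. With the replicate block within diet the number for cold on HFD was 4, and the block changed no call besides Elovl1 and Elovl5 there. The replicate block over all groups added Elovl1 alone, for cold on HFD. The 4-group test called 4 elongases in DESeq2, 4 without the filter and 2 with the muscle score, and the cause was not tested. Without 1 library the numbers ran from 1 to 2 for cold on NCD, 1 to 3 for cold on HFD, 1 to 2 for each diet comparison and the 4-group test, and 0 to 0 for the interaction.

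Signs turned for values near 0 that were never called. With the muscle score cold on NCD gave -0.023 for Elovl1 and -0.015 for Elovl5, which ranged from -0.062 to 0.32 without 1 library. Elovl6 for cold on HFD ranged from -0.37 to 0.12, and the interaction of Elovl3 from -0.20 to 0.33. For Elovl1, HFD at RT gave -0.025 in DESeq2, -0.0194 with its size factors, -0.0243 with a mean of at least 10 counts, -0.0195 with batch as a term, -0.018 with the replicate block, -0.0146 without the filter, -0.0504 with the muscle score, and -0.13 to 0.17 without 1 library. Lengths from RefSeq proteins were not run, and coding lengths were used instead, an alternative chosen after seeing the data. Scaled by library size alone, mean Elovl5 in the cold was 207 CPM on NCD and 134 CPM on HFD, against 227 and 119 after TMM. Mean Elovl6 in the cold was then 2355 CPM on NCD and 1008 CPM on HFD, against 2576 and 899 after TMM. The size of these diet differences therefore depends on the scaling. With 3 mice per group, the intervals of the interaction span about a log2 unit or more.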

Other observations

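Activation of fatty acids, the step before elongation, was examined with 13 long-chain acyl-CoA synthetase genes, of which 10 were tested. In the cold 3 were called higher on NCD, and 4 higher and 1 lower on HFD, and on HFD 2 were called lower at each temperature. The shares of all tested genes in the cold were 3.72% higher on NCD and, on HFD, 5.39% higher and 4.19% lower. Shares called lower on HFD were 1.09% at RT and 2.69% in the cold. Slc27a2, a transporter that activates very long chains, rose in the cold from 109.97 to 367 CPM on NCD (log2 fold change 1.74, adjusted p = 0.00194) and from 129 to 447 CPM on HFD (1.79, adjusted p = 0.00122, edgeR). Acsl5 combined both directions seen among the elongases: it was called higher in the cold on NCD (1.37) and on HFD (0.87) and lower on HFD at RT (-1.09) and in the cold (-1.59). Acsl4 (1.12) and Acsl3 (0.81) were called higher in the cold on HFD, and Slc27a1 was called lower there (-0.71) and on HFD in the cold (-1.01).

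Very long chains are shortened in peroxisomes, and all 12 genes of that list were tested. In the cold 3 were called higher and 1 lower on NCD, and 4 higher and 1 lower on HFD. The shares of all tested genes were 3.72% higher and 2.55% lower on NCD, and 5.39% higher and 4.19% lower on HFD. Ehhadh rose by 1.74 and 2.31 on the log2 scale and Acot8 by 1.15 and 1.51 on NCD and HFD, Acaa1b by 1.81 on HFD, and Abcd2, a transporter of very long chains into the peroxisome, fell by 1.23 and 1.94. Acaa1a was lower on HFD in the cold (-0.85). Of the ceramide synthases, which use very long chains, 5 of 6 were tested and Cers6 alone was called, higher on HFD in the cold (0.82, adjusted p = 0.049, edgeR). The share of all tested genes called higher there was 2.06%.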
